A study of Schizosaccharomyces pombe with 4 samples.

Results

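The cDNAs described here are those that the deposited files place on 2 protein-coding genes at once, in nearly all cases a pair of neighbours on opposite strands whose annotated transcripts overlap. They were chosen by the gene field of the files: a cDNA on chromosomes I to III whose field named 2 or more genes and no structural or noncoding RNA, with 3 abundant mRNAs (SPAC9.09, SPBC8D2.18c and SPCC364.07) left out. This gave 1332 of 61252 cDNAs, each with exactly 2 gene identifiers, in 247 gene pairs, of which 229 also overlapped in the RefSeq annotation used here. By the order of their coding sequences, 228 pairs were convergent (3′ ends facing each other), 15 were divergent and 4 were tandem, that is, on the same strand. The strand of a cDNA says which gene of an opposite-strand pair was read, and of the 1322 cDNAs in such pairs 99.0% overlapped the gene on their own strand in the RefSeq annotation.

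The libraries came from CRAC of fission yeast (Schizosaccharomyces pombe), a method that fixes proteins to RNA in the living cell with UV light, recovers 1 tagged protein and reads the attached RNA as cDNA. It compared a tagged with an untagged strain, with 2 libraries each. In the Mkt1-HTP strain the mkt1 gene carried an HTP tag (a histidine stretch and protein A parts) with a KanR marker, and the control strain had no tag. Both were h+ and carried the otr1R(Sph1):ade6+ reporter, ade6-210, leu1-32 and ura4D18, and cultures were grown at 32 °C in PMG medium lacking tryptophan and irradiated for 42.5 s. The control shows what the purification recovers without a tagged protein, and the study calls libraries of 1 group biological replicates. Depth was 24468 and 26899 distinct cDNAs in Mkt1-HTP replicates 1 and 2, against 1743 and 8142 in control replicates 1 and 2, and values of control replicate 1 are therefore the least precise. Ribosomal RNA took 35.6% and 47.3% of the Mkt1-HTP libraries, against 82.7% and 86.2% of the control libraries.

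Convergent genes of fission yeast often run past each other, so that the 3′ end of one mRNA is complementary to the 3′ end of the other, and transcripts of such pairs have been linked to double-stranded RNA and to the RNAi machinery. Mkt1 is a post-transcriptional regulator that works with Ath1, the counterpart of a partner of poly(A)-binding protein in budding yeast. CRAC keeps the strand of each RNA, and single bases missing from a cDNA often mark where protein was cross-linked.

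Short stretches of some of the covered places are shown first, since the counts per pair that follow come from few places. They are a selection. The rps2602 stretch is not its deepest place in Mkt1-HTP replicate 1, and rpl4302, which was read in its coding span, has no stretch. Each is 30 bases of the RefSeq genome (ASM294v3, whose chromosomes I to III have the accessions of the files' build ASM294v2) on the strand of the gene read, written 5′ to 3′ as DNA. In the first group the capital marks the base most often missing from the cDNAs.
pps1 3′ UTR, chrIII:1791091-1791120, plus strand: cagttttctattgcTctctttatgaaaaac
lip5 3′ UTR, chrII:1387472-1387501, plus strand: acactcgataggagTttgtcttcaacagaa
lip5 coding sequence, chrII:1387342-1387371, plus strand: tatacgtggctagtGgtccacttgttcgta
trm402 3′ UTR, chrI:1060925-1060954, plus strand: tgagcgtctggatcTatatatgaaacatgc
ams1 coding sequence, chrI:2917888-2917917, plus strand: tgtaatattgagtcAtataaagatggcaga

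In the second group the capital marks the middle of the most covered bases, as no base was missing from 3 or more cDNAs there. The fab1 stretch is the one place where the control was called above Mkt1-HTP, and it is shown for comparison with the Mkt1-HTP places.
rns1 3′ UTR, chrII:3727094-3727123, minus strand: aagtgttcgtcgtcAaattcataacttttc
ubi1 3′ UTR, chrI:3969426-3969455, plus strand: gttatttctgtcttGgtaactttacagata
rps2602 3′ UTR, chrI:2792890-2792919, minus strand: tagttagtttgcctAtatgtttttgttcta
fab1 coding sequence, chrII:2653558-2653587, minus strand: tcaggattttgagaCtggggaaggttttaa

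Overlap cDNAs were counted most often at lip5 and pps1. The lip5 gene encodes lipoic acid synthetase, which makes the lipoate cofactor that the glycine cleavage system and other mitochondrial enzymes need, and its partner SPBC8D2.16c, of unknown function, faces it on the minus strand. lip5 had 36 and 52 overlap cDNAs in the Mkt1-HTP libraries, against 0 and 0 in untagged cells, and SPBC8D2.16c had none in any library. No cDNA in the files named lip5 alone, and the annotated 3′ UTR of SPBC8D2.16c spans 1368 bases of lip5. The level of lip5 was 1702 ± 327 CPM (distinct cDNAs scaled to 1000000 in each library, SD, n = 2) in Mkt1-HTP. This is 5.61 times the 303 CPM that 3 counts over both control libraries pooled would give. As 1 cDNA in control replicate 1 alone gives a control mean of 287 CPM, 5.61 is no lower bound. The fitted log2 difference was 7.71 (SE 2.60), and with an adjusted p of 0.0595 by edgeR's quasi-likelihood test it did not pass the threshold of 0.05. It passed in 2 of the alternatives tried, with an adjusted p of 0.000658 without control replicate 1 and 0.0154 with a minimum of 20 cDNAs per feature. In the others edgeR's adjusted p was 0.0506 to 0.638, the highest with mRNA cDNAs as the library size, and it was 0.581 with the replicate block and 0.446 and 0.474 without 1 or the other Mkt1-HTP library.

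The pps1 gene encodes phosphatidylserine synthase, which makes the phospholipid from which phosphatidylethanolamine and phosphatidylcholine are derived, and it faces sqs2, a G-patch protein gene. It had 34 and 34 overlap cDNAs in the Mkt1-HTP libraries and 0 and 1 in untagged cells, none of them on the sqs2 strand. The groups do not overlap, but pps1 is named here for its high Mkt1-HTP counts, so this is no independent evidence. The level was 1327 ± 88.8 CPM in Mkt1-HTP, against 61.4 ± 86.8 CPM in untagged cells, a log2 difference of 3.67 (SE 1.70) with an adjusted p of 0.262 by edgeR. The log2 difference was 1.03 with mRNA cDNAs as the library size, 2.30 with near-identical intervals counted once and 7.56 without control replicate 2, which held the 1 control cDNA. In both genes 1 site could give many cDNAs: when intervals with start and end within 5 nt were counted once, lip5 had 12 and 17 and pps1 had 13 and 15 in the Mkt1-HTP libraries.

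The tagged libraries read the same 3′ regions of lip5 and pps1 but not the same bases most often. In lip5, Mkt1-HTP replicate 1 was deepest at 41 to 59 nt after the stop codon, with 14 cDNAs, and replicate 2 at 127 to 133 nt, with 19 cDNAs, where the annotated transcript ends at 228 nt. Over both libraries, 53 of the 88 lip5 cDNAs had their middle in the 3′ UTR and 35 in the coding sequence. In pps1 the deepest bases were 405 to 413 nt after the stop codon in replicate 1 (19 cDNAs) and 332 nt in replicate 2 (26 cDNAs), with the transcript end at 489 nt. Of the 69 pps1 cDNAs in all 4 libraries, 68 lay in the 3′ UTR. The missing base shown for pps1 was absent from 5 of 25 cDNAs that covered it in Mkt1-HTP replicate 2 and from 0 of 2 in replicate 1. The missing base of the lip5 3′ UTR was absent from 4 of 9 in replicate 2 and 0 of 11 in replicate 1, and that of the lip5 coding sequence from 6 of 13 in replicate 1, with no cDNA over it in replicate 2. No deleted base of these genes was thus seen in both tagged libraries at the places shown.

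**Figure D1:**
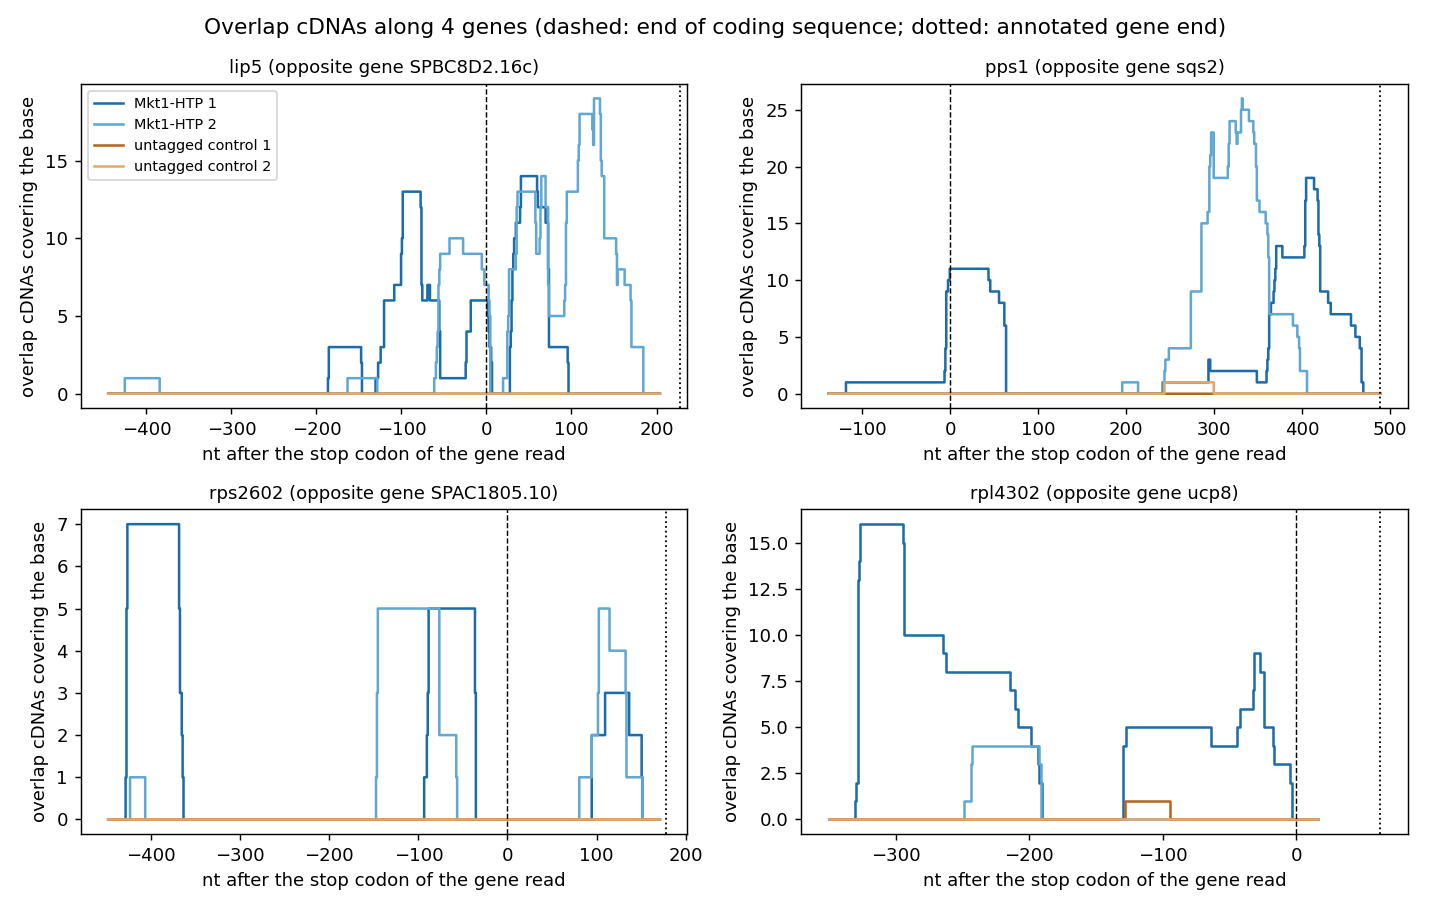
Number of overlap cDNAs covering each base of lip5, pps1, rps2602 and rpl4302 (vertical axis) against the distance in nt from the end of the coding sequence of the gene read (horizontal axis, genomic distance, introns included), with a line for each library. In pps1 the tallest part is 26 cDNAs in Mkt1-HTP 2 and lies before that of Mkt1-HTP 1 (19 cDNAs), and untagged control 2 adds 1 cDNA.

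After these came 4 pairs with 25 to 35 Mkt1-HTP cDNAs, in each of which 1 gene held most of them. At ucp8 and rpl4302, rpl4302 (ribosomal protein eL43) had 26 and 4 cDNAs in Mkt1-HTP and 1 and 0 in untagged cells, while ucp8, a UBA and EF hand protein gene on the plus strand, had 0 and 5 in Mkt1-HTP and none in untagged cells. All 31 rpl4302 cDNAs lay in its coding span. The rns1 gene, annotated as a putative RNA-binding protein, had 1 and 29 in Mkt1-HTP and none in untagged cells, and its partner mrh5, an RNA helicase gene, had none. Those 29 cDNAs lay in 1 place of 100 bases in the rns1 3′ UTR, opposite the coding sequence of mrh5, and counted 6 once near-identical intervals were joined. Libraries of the tagged strain thus disagreed at both pairs, by 26 against 4 and by 1 against 29.

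Close numbers in both tagged libraries were found at rps2602 (ribosomal protein eS26), with 15 and 13 cDNAs in Mkt1-HTP and none in untagged cells. Its partner SPAC1805.10, of unknown function, was not read there. The rps2602 cDNAs fell in 3 places, and the one in the 3′ UTR held 3 and 5 cDNAs of the Mkt1-HTP libraries. The ubi1 gene, a fusion of ubiquitin with ribosomal protein L40, had 22 and 3 in Mkt1-HTP and none in untagged cells, all in its 3′ UTR and none on the strand of mct1, which encodes the malonyltransferase of mitochondrial fatty acid synthesis. As ribosomal protein genes and ubi1 have near-identical copies (rps2601, rpl4301, ubi2), reads could have been divided among them in mapping and their counts are uncertain.

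The remaining pairs among the 15 most read had 13 to 19 Mkt1-HTP cDNAs each, and several came from 1 library. lys2, which encodes homoaconitate hydratase of lysine synthesis (partner wdr70), had 10 and 6 cDNAs, rpl2002 (ribosomal protein eL20, divergent from rmi1 and apart from it in RefSeq) had 7 and 8, and rna15 (partner mrpl9), whose budding yeast counterpart acts in mRNA 3′ end formation, had 7 and 7. These were read in both tagged libraries and in neither control library. rpl1702 (ribosomal protein uL22, partner coy1) had 13 and 3. By contrast cnt6, an ArfGAP gene, had 18 and 0 cDNAs, trm402, a tRNA cytosine methyltransferase gene, had 0 and 15, and psd3, a phosphatidylserine decarboxylase gene, had 13 and 0, again with none in untagged cells. Their partners dhp1, rad4 and dpm1 were not read in these cDNAs. In the trm402 3′ UTR, 10 of the 12 cDNAs that covered the marked base of the stretch above lacked it, and at ams1, which encodes an alpha-mannosidase, 13 of 14 did. pdc2, whose product promotes mRNA decapping, had 11 and 0 in Mkt1-HTP and 0 and 1 in untagged cells, next to 2 and 0 for its partner ulp1, a SUMO protease gene, in Mkt1-HTP.

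**Figure D2:**
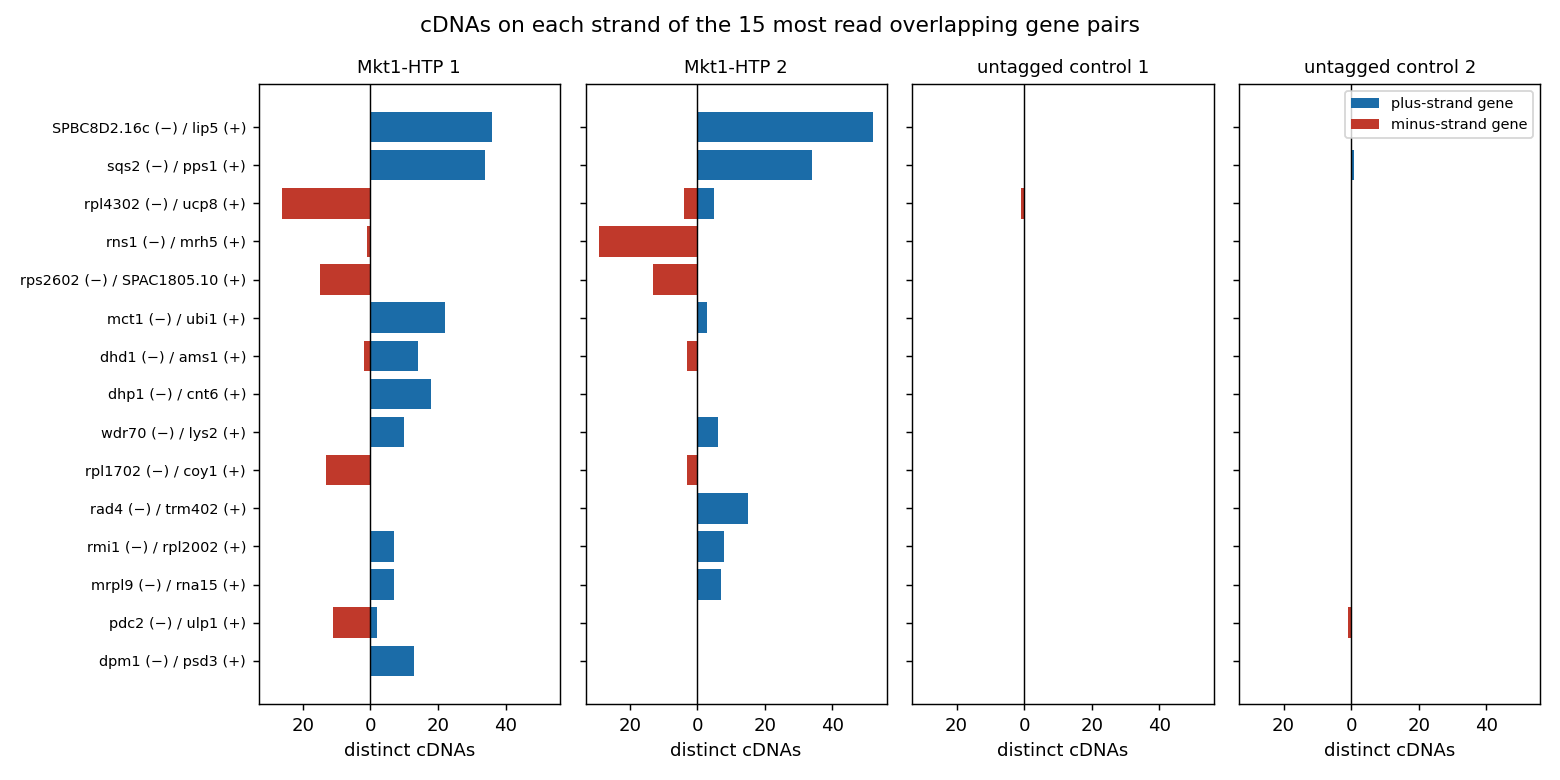
Distinct cDNAs (horizontal axis) in each of the 15 pairs with the most Mkt1-HTP cDNAs, in a panel for each library, with the plus-strand gene to the right of 0 and the minus-strand gene to the left. The longest bars are lip5 with 52 and 36 and pps1 with 34 and 34, rns1 reaches 29 in Mkt1-HTP 2 alone, and the control panels hold 3 cDNAs in all.

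Mkt1-HTP was compared with the control over all features, a feature being a gene field plus a strand, to see which overlap cDNAs stood above or below the background of the purification. Of 443 features with 10 or more cDNAs over the 4 libraries, 15 (3.39%) were higher and 7 (1.58%) lower in Mkt1-HTP at an adjusted p under 0.05 by edgeR. In both directions together that is 4.97%. Overlap cDNAs made up 27 of the 443 features, of which 0 were called higher and 1 lower. DESeq2 called 0 in either direction. At an unadjusted p under 0.05 by edgeR there were 4 higher and 1 lower. Those 4 were lip5, pps1, rns1 (adjusted p 0.309) and rps2602 (adjusted p 0.309). All 4 reached the minimum of 10 cDNAs through Mkt1-HTP, with 0 control cDNAs at lip5, rns1 and rps2602 and 1 at pps1. The minimum thus favoured the higher direction, also for the median log2 difference given below. How many of all 443 features passed that unadjusted threshold was not counted, so the 4 cannot be set against a background. The count was also 4 with a minimum of 20 cDNAs, but 1 with DESeq2 and 0 with mRNA cDNAs as the library size or with the replicate block. The median log2 difference was 4.94 over the 27 and 4.73 over all 443, and 21 of the 27 had no control cDNA, and a fitted value against a control at 0 is no bound on the difference. The 27 are those of 266 strands of pairs that held enough cDNAs to enter the fit, and 10 of the 27 came from 1 library only.

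The feature called lower was the minus strand of prp17 and fab1, the fab1 gene encoding the kinase that makes phosphatidylinositol 3,5-bisphosphate. It had 0 and 0 cDNAs in Mkt1-HTP and 11 and 0 in untagged cells, a log2 difference of -8.35 (SE 1.81, adjusted p 0.000304 by edgeR). The control mean of 3155 ± 4463 CPM was 54.0 times the 58.4 CPM that 3 counts over both Mkt1-HTP libraries would give. Control replicate 2 had 0 cDNAs, like both Mkt1-HTP libraries, so 54.0 is no bound on a difference between the groups. All 11 cDNAs came from control replicate 1 and from 1 place of 64 bases, which counted 2 when near-identical intervals were joined. The feature reached the minimum count only through these 11, so the minimum favoured the lower direction here. The adjusted p was 0.127 with DESeq2, and blocking on replicate number in edgeR gave 0.581, while without Mkt1-HTP replicate 1 or 2 edgeR gave 0.468 or 0.493. prp17, a splicing factor gene, had 2 and 0 cDNAs in Mkt1-HTP and none in untagged cells.

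Of other pairs with control cDNAs, 3 are given here, each read in 1 control library. med14, a mediator subunit gene facing pus7, had 0 and 0 in Mkt1-HTP and 7 and 0 in untagged cells. ppr1, facing egt1, had none in Mkt1-HTP and 0 and 6 in untagged cells, and ccp1, facing tlg1, had none in Mkt1-HTP and 0 and 5 in untagged cells. Of the 247 pairs, 240 were seen in Mkt1-HTP, 19 in untagged cells and 12 in both groups, 42 pairs were seen in both Mkt1-HTP libraries, and none was seen in both control libraries, which held 26 and 32 overlap cDNAs.

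Whether overlap cDNAs were a larger part of the Mkt1-HTP libraries depended on the whole they were set against. They were 2.77% (Wilson 95% interval 2.57 to 2.98) and 2.22% (2.05 to 2.40) of all cDNAs in tagged cells (Mkt1-HTP), against 1.49% (1.02 to 2.177) and 0.393% (0.279 to 0.554) in untagged cells. The mean was 2.49 ± 0.39% in Mkt1-HTP and 0.942 ± 0.777% in untagged cells (SD, n = 2 each), with a p of 0.333 in the two-sided exact permutation test, the smallest that 2 against 2 libraries allow. Of mRNA cDNAs alone (those on the chromosomes with no structural or noncoding RNA in the gene field), they were 6.69% and 6.02% in Mkt1-HTP, against 18.8% and 7.31% in untagged cells, where the 26 of 138 cDNAs of replicate 1 include the 11 at fab1. The direction thus turned with the denominator. The intervals cover counting error only, and cDNAs from 1 place are not independent.

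In 224 of the 243 opposite-strand pairs only 1 gene was read, and in 19 both were. Of these pairs 45 had 1 cDNA and could show only 1 strand, so that 19 of the 198 pairs with 2 or more cDNAs were read on both. The less-read strand held 45 of the 1322 cDNAs. Among the 29 pairs with 10 or more cDNAs, 8 had both strands. Of the 42 opposite-strand pairs seen in both Mkt1-HTP libraries, 32 had the same more-read gene in both and 10 did not.

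Of the 19 pairs read on both strands, 9 had each gene in different libraries only and 4 had 3 or more cDNAs of each gene in 1 library. At shy1, a cytochrome oxidase assembly gene, and naa25, a subunit of the NatB acetyltransferase, naa25 had 6 and 0 cDNAs and shy1 had 0 and 5 in the Mkt1-HTP libraries. At acl1 and fau1, fau1 (5-formyltetrahydrofolate cyclo-ligase, of folate metabolism) had 3 and 0 and acl1 (an ATP citrate synthase subunit) had 0 and 3. At ams1 and dhd1, ams1 had 14 and 0 and dhd1 had 2 and 3. Both genes were read in the same library at cnp1, the gene of the centromeric histone CENP-A, and pth3, where pth3 had 0 and 5 and cnp1 0 and 3, and at naa38 and apl2, where apl2 had 5 and 5 and naa38 3 and 0. None of these pairs had a control cDNA.

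For convergent pairs with 10 or more cDNAs over the 4 libraries, the less-read strand was taken from one tagged library and counted in the other. A pair with no cDNA, or with equal numbers on both strands, in the library used to choose was left out. The less-read strand held 51 of 213 cDNAs (23.9%, Wilson 95% interval 18.7 to 30.1) in Mkt1-HTP replicate 1. In replicate 2 it held 22 of 196 (11.2%, 7.53 to 16.4). The 26 rpl4302 cDNAs are among the 51, since replicate 2 held 4 there against 5 of ucp8. With near-identical intervals counted once and the minimum of 10 applied to those counts, a smaller set of pairs was left. There the share was 0 of 39 in replicate 1 and 1 of 41 in replicate 2. Most of these cDNAs were from lip5 and pps1, whose partners had none, so the shares are not of the same pairs. In untagged cells the convergent pairs with 10 or more cDNAs held 12 and 9 cDNAs. Of these, 11 and 0 were on the strand less read over both Mkt1-HTP libraries, the 11 being those at fab1. The pair of prp17 and fab1 reached the minimum of 10 only through these 11. The minimum itself thus favoured this value, and no difference between groups can be read from it.

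Recovery in both tagged libraries was the exception for overlap cDNAs. A pair strand here is 1 strand of 1 pair. Of 266 pair strands, 156 were seen in Mkt1-HTP replicate 1, 136 in replicate 2 and 34 in both, and 9 had 5 or more cDNAs in both. Among pair strands with 10 to 19 cDNAs in replicate 1, 3 of 11 were seen in replicate 2, and among those with 10 to 19 in replicate 2, 1 of 4 was seen in replicate 1. For genes whose cDNAs carried 1 gene identifier, 61 of 98 and 63 of 80 with 10 to 19 cDNAs were seen in the other library. This difference was not tested, as genes are not replicates of a library. With 20 or more cDNAs, all 4 pair strands of replicate 1 and all 3 of replicate 2 were seen in the other.

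**Figure D3:**
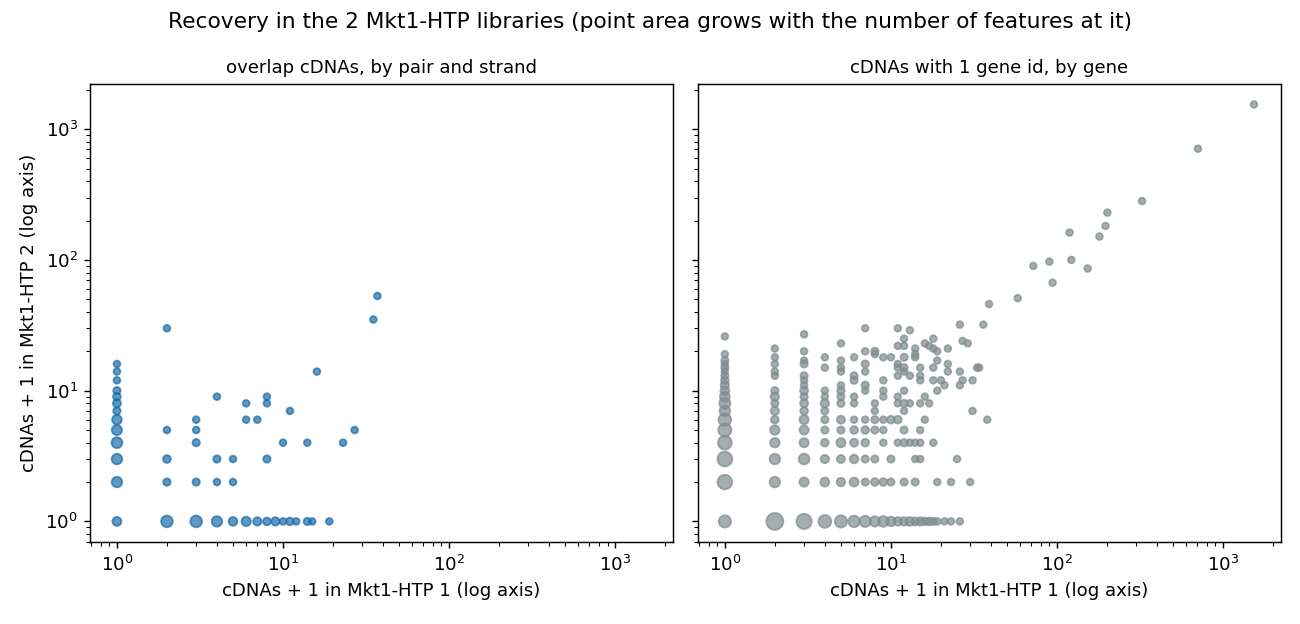
cDNAs plus 1 in Mkt1-HTP 1 (horizontal axis, log scale) and Mkt1-HTP 2 (vertical axis, log scale) for each strand of each overlapping pair (left) and for each gene whose cDNAs carried 1 gene identifier (right), with larger points where more features share a value. On the left most points lie on an axis, as 34 of the 266 pair strands were seen in both libraries.

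Joined over libraries, the overlapping intervals of each pair strand gave 326 places, of which 23 were seen in both Mkt1-HTP libraries and 7 in both groups. These 23 places held 156 and 157 of the 678 and 596 overlap cDNAs of Mkt1-HTP, and 0 and 2 of the 26 and 32 of the control. Of 87 places with 5 or more cDNAs (median length 61 nt), 67 came from 1 library only. When near-identical intervals were counted once, 254 and 221 overlap cDNAs were left in Mkt1-HTP and 8 and 13 in untagged cells.

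A place shared by both tagged libraries lay outside both of its genes. On the minus strand between SPAC57A7.05 and pabp, the gene of poly(A)-binding protein, Mkt1-HTP had 6 and 5 cDNAs and the control none, over 42 bases of the chromosome that are almost all A on that strand. It was singled out after its values were seen, because of its sequence.
place between SPAC57A7.05 and pabp, chrI:1541473-1541502, minus strand: ttaaaaaaaaaaaaAaaaaaaaaaaaaaaa
The capital marks the middle of the most covered bases. Whether these cDNAs came from this place or from poly(A) elsewhere was not tested.

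Along the gene read, overlap cDNAs of the tagged strain lay mainly in the 3′ UTR. Their middle was in the 3′ UTR in 65.6% (Wilson 95% interval 61.9 to 69.1) and 64.9% (61.0 to 68.7) of Mkt1-HTP cDNAs, against 42.3% (25.5 to 61.1) and 40.6% (25.5 to 57.7) of control cDNAs. The groups do not overlap, the difference was 23.8 percentage points, and the two-sided exact permutation test gave a p of 0.333, the smallest this design allows. For cDNAs with 1 gene identifier the share was 65.4% and 65.5% in Mkt1-HTP and 50.9% and 22.8% in untagged cells. With near-identical intervals counted once, the Mkt1-HTP shares were 61.6% and 63.6% for overlap cDNAs and 53.9% and 54.5% for those with 1 gene identifier. The difference between these kinds of cDNA was not tested. Coding sequence held 31.9% and 31.2% in Mkt1-HTP and 57.7% and 59.4% in untagged cells, where the 11 at fab1 in replicate 1 and the 6 at ppr1 and 5 at ccp1 in replicate 2 lay in coding sequence. As convergent transcripts overlap at their 3′ ends, the choice of these cDNAs favours 3′ UTRs in both groups.

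Relative to the gene on the other strand, 70.8% and 62.7% of Mkt1-HTP cDNAs lay opposite its 3′ UTR, against 92.3% and 71.9% in untagged cells. Opposite coding sequence were 12.97% and 19.9% in Mkt1-HTP and 0% and 18.8% in untagged cells, rns1 and trm402 being examples. In both 3′ UTRs at once lay 42.0% and 33.4% in Mkt1-HTP and 38.5% and 15.6% in untagged cells. In coding sequence of the gene read and opposite a 3′ UTR lay 27.9% and 27.2% in Mkt1-HTP and 53.8% and 56.25% in untagged cells. The 2 mRNAs of a pair would be complementary in both 3′ UTRs and also where a 3′ UTR faces coding sequence. A further 15.6% and 17.4% in Mkt1-HTP and 7.69% and 9.38% in untagged cells had their middle outside the opposite gene as RefSeq draws it. The gene bounds of the files and of RefSeq were not compared, so the reason was not tested.

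**Figure D4:**
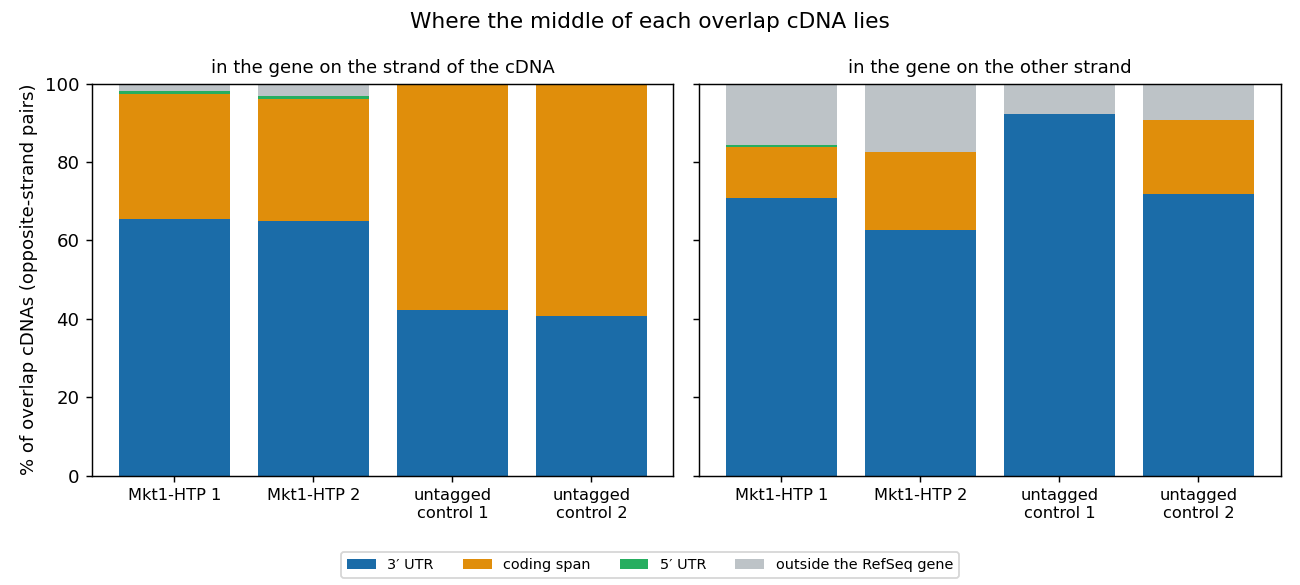
Percent of overlap cDNAs of opposite-strand pairs (vertical axis) whose middle lies in the 3′ UTR, coding span or 5′ UTR of the gene on their own strand (left) and of the gene on the other strand (right), or outside it in RefSeq, for each library. In the left panel the 3′ UTR part is 65.6% and 64.9% in Mkt1-HTP and 42.3% and 40.6% in untagged cells.

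Missing bases were found at a higher share in both Mkt1-HTP libraries than in either control library. A deletion was present in 14.5% (Wilson 95% interval 12.01 to 17.3) and 20.1% (17.1 to 23.5) of Mkt1-HTP cDNAs, against 1 of 26 (3.85%, 0.682 to 18.9) and 0 of 32 control cDNAs, where a count of 0 of 32 allows up to 10.7% by the same interval. The mean was 17.3 ± 4.0% in Mkt1-HTP and 1.92 ± 2.72% in untagged cells, with a p of 0.333 in the two-sided exact permutation test. Of cDNAs with 1 gene identifier, 14.2% and 26.3% in Mkt1-HTP and 2.75% and 26.4% in untagged cells had one, so that control replicate 2 was as high there as the tagged libraries. In 25 places 1 base was missing from 3 or more overlap cDNAs, and in 13 of them it was U in the RNA. Over all mRNA cDNAs, 53.4% of missing bases were U, against 28.7% to 42.9% at 5 to 20 nt to either side.

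The median length of overlap cDNAs was 48 and 47 nt in Mkt1-HTP and 54.5 and 50.5 nt in untagged cells, and the median U content 35.5% and 34.2% in Mkt1-HTP and 36.3% and 31.1% in untagged cells.

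Of 36 mRNAs that the study listed as bound, a list drawn from these same libraries and so no independent evidence, 5 were read in overlap cDNAs, with 80 and 98 cDNAs in Mkt1-HTP and 0 and 2 in untagged cells. They were lip5, pps1, SPBC15C4.04c (3 and 8 in Mkt1-HTP, 0 and 1 in untagged cells), pfk1 and knh3. Of these 5, lip5, pps1 and SPBC15C4.04c had enough cDNAs to be tested and none of the 3 passed, and pfk1 and knh3 were not tested. Of 29 genes listed under methionine and 1-carbon metabolism, 28 were found in RefSeq and 3 were read (lip5, pps1 and met14). They had 70 and 87 cDNAs in Mkt1-HTP and 0 and 1 in untagged cells. Of the Mkt1-HTP ones met14 had 0 and 1. The rest were of lip5 and pps1, whose products, as given above, make lipoate and phosphatidylserine. The counts are thus no sign of the pathway as a whole. Of 19 glycolysis and fermentation genes, pfk1 (phosphofructokinase) had 6 and 0 and atd1 (aldehyde dehydrogenase) 0 and 4 in Mkt1-HTP, with none in untagged cells. Of 17 listed translation factor genes 16 were found in RefSeq and none of these was read, though pabp faces the 6 and 5 minus-strand cDNAs given above.

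Ribosomal protein mRNAs, the longest of these lists, had the most genes read, 19 of 141, next to 5 of the 36 mRNAs listed as bound. They had 104 and 66 cDNAs in Mkt1-HTP and 2 and 2 in untagged cells, which is 15.5% and 11.1% of overlap cDNAs in Mkt1-HTP and 7.69% and 6.25% in untagged cells. rpl4302, rps2602 and rpl1702 had the most, and 3 of the 19 genes had a control cDNA. Of the 19, 5 had enough cDNAs to be tested (rpl4302, rps2602, rpl1702, rpl2002 and rps1401), and none of these 5 passed in either direction. The other 14 were not tested.

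Genes of RNAi and heterochromatin were not read in overlap cDNAs, and 4 of the 21 listed were covered only on the opposite strand. The most was at rik1, a subunit of the Clr4 methyltransferase complex, where SPCC11E10.09c on the other strand had 13 and 0 cDNAs in Mkt1-HTP and none in untagged cells. clr4 itself, the histone H3 lysine 9 methyltransferase, lay opposite 0 and 2 cDNAs of meu6, and sir2 and tri1 lay opposite 2 and 3 cDNAs of Mkt1-HTP replicate 1. Of 16 RNA surveillance genes, cid14, a noncanonical poly(A) polymerase, had 0 and 5 cDNAs in Mkt1-HTP. dhp1, the nuclear 5′ to 3′ exoribonuclease, and dis3, the exosome nuclease, lay opposite 18 and 0 cDNAs of cnt6 and 1 and 2 of the4, again with none in untagged cells. Of these only cnt6 and SPCC11E10.09c entered the fit, with adjusted p of 0.422 and 0.485 by edgeR, and the rest held fewer than 10 cDNAs.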

How the data were processed

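The authors clipped adapters and collapsed PCR duplicates, filtered out tRNA with STAR 2.7.1a, aligned the remainder with Novoalign 3.09.02 (build ASM294v2) and ran pyReadCounters (Counters 1.4.4), as the labels, headers and published methods state. The deposited files hold counts, with 1 row and a count of 1 per distinct cDNA, so abundant RNAs are held back. Gene bounds, roles and sequences came from RefSeq (ASM294v3, with the same accessions for chromosomes I to III), and all 489 gene identifiers were found there. Rows naming no gene (7.79% and 3.60% of Mkt1-HTP, 3.56% and 3.01% of the control) were kept in library sizes, and an alternative chosen after the data were seen leaves them out.

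Features with 10 or more cDNAs over the 4 libraries were fitted with edgeR 4.0.16 (glmQLFit, glmQLFTest, group as the only term, library size all distinct cDNAs) in R 4.3.3, with Benjamini-Hochberg adjustment over all 443. The common dispersion was 0.915 with infinite prior degrees of freedom, so p-values use a spread pooled over features and not the feature's own. The script was tested on simulated data. DESeq2 1.42.0 was an alternative. Shares have Wilson 95% intervals, and shares were compared by exact permutation over libraries (scipy 1.17.1, Python 3.11.15). A fold against a group at 0 used 3 counts over the pooled libraries of the group and is no lower bound. The middle of a cDNA set its position. Same-numbered libraries of the 2 groups may share a pool, but their deviations correlated at 0.0946 over features, 254 of which had no control cDNA, so the numbers were not used to pair samples in the main result.

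Named were the 15 pairs with the most Mkt1-HTP cDNAs (3 more pairs tied with the last), the 5 with the most control cDNAs (1 of them is not reported here), features past the threshold, 6 convergent pairs with the most cDNAs on the less-read strand (1 more tied) and up to 3 genes per list. The members, lists and tests were chosen with earlier results of these data known, and 4 symbols of the translation factor list were brought to those of RefSeq afterwards.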

Additional observations from a re-analysis of the deposited data

How the results depend on the processing

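The number of overlap features called higher was 0 as reported, 1 (lip5) with a minimum of 20 cDNAs, and 0 to 1 with 1 library left out, the 1 being lip5 without control replicate 1. The number called lower was 1 (fab1). It was 2 with no minimum count (fab1 and med14), 0 with DESeq2, 0 with a minimum of 20, where fab1 is no longer tested, 0 with near-identical intervals counted once, where 4 overlap features are left to test, and 0 to 1 with 1 library left out. With the replicate number as a block, the count of features called was 0 higher and 0 lower, and over all features 6 higher and 3 lower, against 15 and 7 without the block. With the library size set to mRNA cDNAs, 0 of all features were higher and 8 lower. Why these calls moved was not tested beyond what the settings themselves change.

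The difference in the share of library cDNAs was 1.55 percentage points (1.00 to 2.10 with 1 library left out). Without control cDNAs whose interval was also in the same-numbered tagged library it was 1.02 points (p 0.667, two-sided exact permutation test). There the groups overlapped, with control replicate 1 at 2.44% and Mkt1-HTP replicate 2 at 2.22%. The difference turned to -6.72 with mRNA cDNAs as the denominator, and to -1.63 with near-identical intervals also counted once, an alternative chosen after the data were seen. The mean share on the less-read strand was 17.6% and became 1.22% with near-identical intervals counted once. The differences in 3′ UTR share and in the share with a deletion kept their sign in every alternative tried, at 16.9 to 24.6 and 12.5 to 18.2 points. Of single features, the log2 difference of rpl4302 became -0.50, that of pdc2 -1.48 and that of SPBC15C4.04c -1.46 with mRNA cDNAs as the library size, and that of pdc2 became -0.15 with the replicate block.

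Depth sets the limit. In the control, 3 counts over both libraries pooled equal 303 CPM, and 1 cDNA of control replicate 1 is worth more than 1 of any other library. Leaving out control cDNAs with an interval also in the same-numbered Mkt1-HTP library kept 1025 of 1743 cDNAs of control replicate 1. In control replicate 2 it kept 6100 of 8142. Of the control overlap cDNAs, 2 were left out in this way. Where the shared intervals came from was not tested.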
